A study of Mus musculus with 6 samples.

Results

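The genes described are 10 members of the MHC class I presentation pathway, chosen by symbol from the 24062 gene rows of the count files: B2m, H2-D1, H2-K1, H2-T23, Tap1, Tap2, Tapbp, Psmb8, Psmb9 and Nlrc5. All 10 were found and all 10 passed the filter on low counts. The libraries came from marrow of C57BL/6J mice, grown with the cytokine GM-CSF at 20 ng/ml on a substrate of 50 kPa, called high tension, or of 2 kPa, called low tension. Each stiffness had 3 samples, titled as dendritic cells. All 6 received the same cytokine, and stiffness is the only labelled difference. According to the series text the softer substrate stands for healthy tissue and the stiffer one for fibrotic, inflamed tissue. No sort is named, so a value averages over every cell type of a culture. The labels do not say whether samples of 1 stiffness came from separate cultures or mice, so p-values cover only how far these samples differ from each other, and that spread may be technical. In such bulk RNA, fewer cells of a type and less RNA per cell cannot be told apart.

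MHC class I molecules carry peptides of the cell's own proteins to the surface, where CD8 T cells read them. The proteasome cuts the proteins, the TAP transporter moves the peptides into the endoplasmic reticulum, and tapasin holds an empty class I molecule beside TAP until a peptide is bound. A class I molecule is a heavy chain paired with beta-2 microglobulin. Interferon gamma replaces the catalytic subunits of the standard proteasome with those of the immunoproteasome and induces NLRC5, a transcriptional coactivator of class I genes. Dendritic cells also load class I with peptides of material they have taken up, which is called cross-presentation.

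Library totals lay between 33.8 M and 36.3 M counts, and TMM factors between 0.927 and 1.16. Levels are CPM, counts per M of the library scaled by its TMM factor, and a log2 fold change is 50 kPa over 2 kPa with its standard error. A gene was called at an edgeR quasi-likelihood adjusted p under 0.05 over all 13155 genes tested, of which 454 were called, or 3.45%. An unadjusted edgeR p under 0.05 was met by 3660 of the 13155, 1716 of them with a higher level at 50 kPa. DESeq2, an alternative test, called 1121 of 13150 genes higher at 50 kPa and 1251 lower. High tension replicates 1 and 2 were the most alike pair: their counts gave 6.71 as chi-square divided by its degrees of freedom, against 122 or more for the other pairs of libraries. The 10 genes together took 1.45, 1.38 and 1.75% of the scaled counts in the 50 kPa libraries and 1.00, 0.838 and 1.57% in the 2 kPa libraries.

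Of the 10 genes, 8 lie on chromosome 17 in the mouse MHC region, with B2m on chromosome 2 and Nlrc5 on chromosome 8 (GENCODE vM21, GRCm38). Psmb9, Tap1, Psmb8 and Tap2 form a block of 34.3 kb at chr17:34181987-34216321. H2-K1 (chr17:33996017-34000347) and Tapbp (chr17:33915899-33929292) lie to one side of it, H2-D1 (chr17:35262730-35267499) and H2-T23 (chr17:36029773-36032855) to the other. B2m spans chr2:122147686-122153083 and Nlrc5 chr8:94434356-94527272. RefSeq's table of promoters on GRCm38.p6 holds 8 of the 10 symbols, and Tap2 and Nlrc5 were not used there. In this table Psmb9 and Tap1 start on opposite strands with 225 bases between the starts, so 1 stretch lies before both.

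The 250 bases before the start are printed for B2m, H2-D1 and H2-K1, the chains with the largest positive fold changes, and for Tap1, whose stretch is shared with Psmb9. Of the 2 starts that the table lists for H2-K1, the one at the lower coordinate is shown. Capitals mark matches, on either strand, to 5 motifs: GAAANNGAA of interferon response elements, TTCNNNGAA of STAT factors, GGGANTNCC of NF-kB, CCAAT of NF-Y and TGACG of CREB and ATF factors. In the printed stretches no match overlaps one of another motif.
B2m, chr2:122147437-122147686, plus strand: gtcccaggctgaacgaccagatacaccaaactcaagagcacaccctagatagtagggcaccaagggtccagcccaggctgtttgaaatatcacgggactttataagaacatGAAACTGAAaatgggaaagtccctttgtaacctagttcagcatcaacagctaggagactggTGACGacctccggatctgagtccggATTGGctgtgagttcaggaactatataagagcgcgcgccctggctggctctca
H2-D1, chr17:35262844-35263093, plus strand: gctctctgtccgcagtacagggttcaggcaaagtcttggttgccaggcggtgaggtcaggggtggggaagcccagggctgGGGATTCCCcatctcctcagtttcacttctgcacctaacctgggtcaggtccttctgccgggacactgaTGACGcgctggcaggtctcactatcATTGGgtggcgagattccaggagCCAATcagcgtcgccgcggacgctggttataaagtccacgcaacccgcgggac
H2-K1, chr17:34000334-34000583, minus strand: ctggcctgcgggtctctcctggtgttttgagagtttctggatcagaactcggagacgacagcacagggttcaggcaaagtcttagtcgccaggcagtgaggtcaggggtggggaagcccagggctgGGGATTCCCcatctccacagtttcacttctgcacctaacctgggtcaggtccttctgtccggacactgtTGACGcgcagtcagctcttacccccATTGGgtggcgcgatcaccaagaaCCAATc
Tap1, chr17:34187306-34187555, plus strand: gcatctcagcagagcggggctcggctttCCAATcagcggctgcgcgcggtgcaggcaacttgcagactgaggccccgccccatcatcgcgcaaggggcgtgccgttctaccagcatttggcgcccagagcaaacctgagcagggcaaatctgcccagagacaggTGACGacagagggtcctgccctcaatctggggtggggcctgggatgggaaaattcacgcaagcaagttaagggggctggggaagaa

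H2-D1 and H2-K1 share an unbroken run of 47 bases, which begins 201 and 155 bases before their starts and holds the NF-kB match of each. CCAAT was found before 7 of the 8 genes, against 33.8% of the 32851 promoters in the table. TGACG was found before 5 of the 8, against 17.8%, and the NF-kB letters before 2, H2-D1 and H2-K1, against 3.36%. The interferon response letters were found before B2m and H2-T23, against 7.13%, and the STAT letters before Psmb8, against 7.02%. The CCAAT matches of Tap1 and Psmb9 are the same bases read on opposite strands, and so are their TGACG matches. Both counts therefore hold a shared match under both genes. The counts are of genes, while the shares are of promoters. These matches describe letters in a window and not sites that a factor binds.

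Per kilobase of exon the order of mean levels was the same at both stiffnesses. B2m led with 6827 ± 624 CPM per kb at 50 kPa and 4357 ± 1178 CPM per kb at 2 kPa (SD, n = 3). H2-D1 followed with 1330.0 ± 23.3 and 863 ± 251 CPM per kb and H2-K1 with 1204 ± 198 and 843 ± 280 CPM per kb, at 50 and at 2 kPa, and the libraries of these neighbours overlapped. Tapbp and H2-T23 came next and also overlapped each other, with 249 and 214 CPM per kb at 50 kPa and 284 and 202 CPM per kb at 2 kPa. Tap2, Psmb8 and Tap1, which overlapped in turn, lay between 46.9 and 70.0 CPM per kb at 50 kPa and between 61.9 and 93.0 CPM per kb at 2 kPa. Psmb9 and Nlrc5 were lowest, at 25.0 and 9.99 CPM per kb at 50 kPa, where their libraries did not overlap, and at 36.1 and 21.9 CPM per kb at 2 kPa, where they did. Exon length is the union over all annotated transcripts, so genes with many long variants are set low on this scale.

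None of the 10 genes was called by edgeR, beside 3.45% of all tested genes. By edgeR 2 of them, B2m and H2-D1, had an unadjusted p under 0.05 with a higher level at 50 kPa, beside 13.0% of all tested genes. DESeq2 called 1, B2m, beside 8.52% of all genes called higher by DESeq2, and limma-voom called 0. Their median log2 fold change was -0.26, against -0.03 over all tested genes. Of the 10 values 4 were positive and 6 negative, beside 53.2% negative among all tested genes. The chains of the class I molecule had the positive values, and the genes of peptide supply and Nlrc5 the negative ones. The values of H2-T23, Tap1 and Tapbp changed sign when certain single libraries were left out. Without low tension replicate 3 the median was 0.29 and 4 values were negative.

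**Figure D1:**
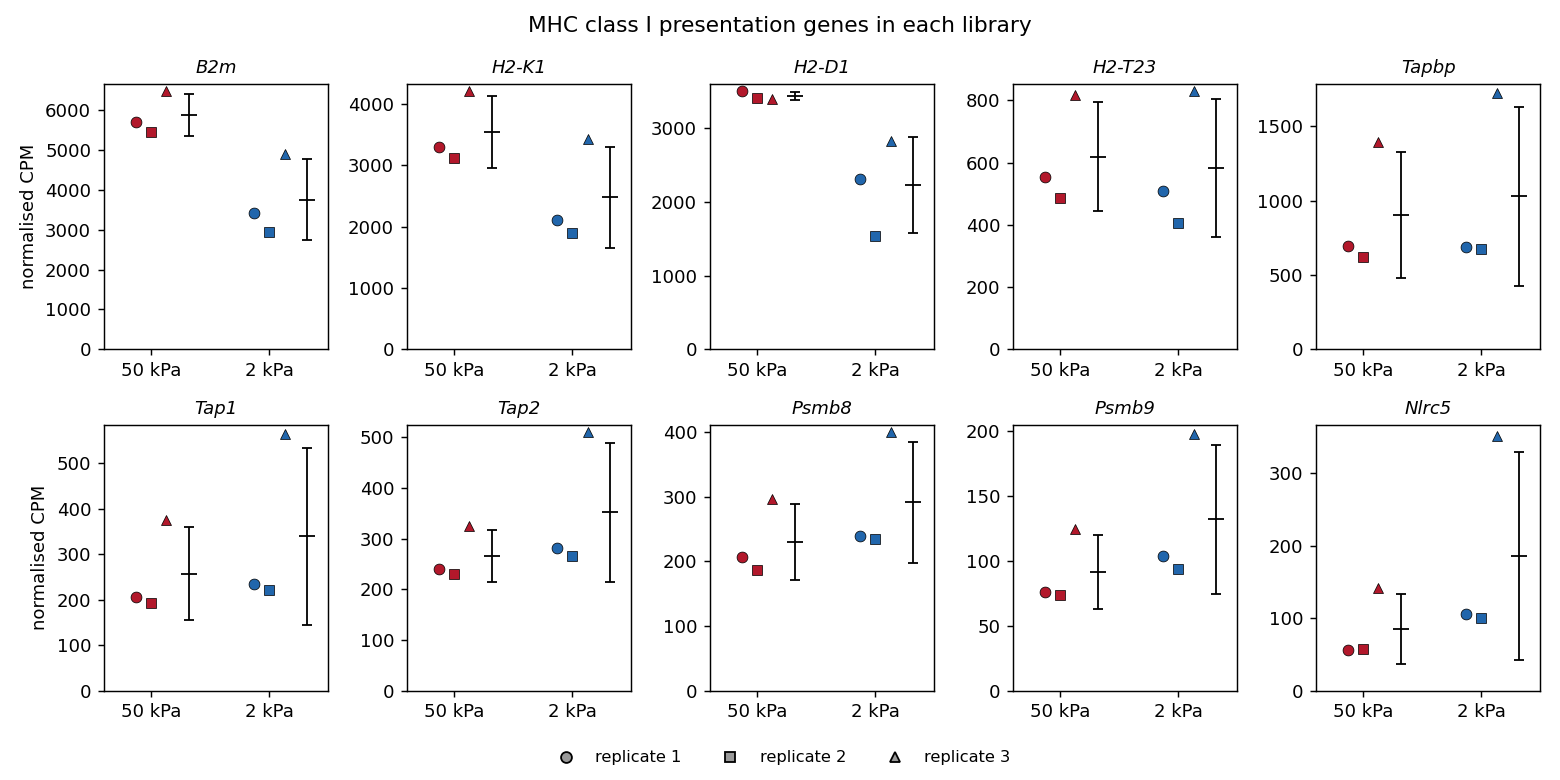
Normalised CPM of the 10 class I presentation genes in each library, 50 kPa left of 2 kPa; symbols give the replicate and the bar is the mean with SD (n = 3). B2m and H2-D1 have every 50 kPa library above every 2 kPa library, and replicate 3 is the highest of its stiffness in all panels but the H2-D1 panel at 50 kPa.

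B2m encodes beta-2 microglobulin, the light chain common to all class I molecules. It stood at 5706, 5437 and 6471 CPM in the 50 kPa libraries and at 3411, 2944 and 4885 CPM in the 2 kPa libraries. The lowest 50 kPa library was above the highest 2 kPa library, and replicate 3 was the highest at each stiffness. The log2 fold change was 0.65 ± 0.25, with a 95% interval from 0.035 to 1.26 and an edgeR adjusted p of 0.165. DESeq2 gave an adjusted p of 0.0422, and over the other alternatives run with edgeR or limma-voom the adjusted p lay between 0.0762 and 0.393.

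H2-D1 and H2-K1 encode the classical class I heavy chains of this strain. H2-D1 was at 3499, 3403 and 3387 CPM at 50 kPa and at 2308, 1541 and 2825 CPM at 2 kPa. Its groups did not overlap, and its 50 kPa libraries were nearly level while those at 2 kPa were spread 1.83-fold. Its log2 fold change was 0.62 ± 0.25 (edgeR adjusted p = 0.172). H2-K1 was at 3299, 3111 and 4200.0 CPM at 50 kPa and at 2114, 1896 and 3418 CPM at 2 kPa. The 2 kPa replicate 3 was above 50 kPa replicates 1 and 2, so the groups overlapped. For H2-K1 the log2 fold change was 0.51 ± 0.28 (edgeR adjusted p = 0.28). Groups that did not overlap with the 50 kPa libraries on top, as in B2m and H2-D1, were found in 17.2% of all tested genes, and the opposite in 16.9%, a pattern that 0 of the 10 had.

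Beside these values, markers of several cell types differed between the stiffnesses in the mixed cultures. The summed level of 11 macrophage markers was 5419 to 6318 CPM at 50 kPa and 2125 to 4128 CPM at 2 kPa. By edgeR 0 of 11 were called, 6 had an unadjusted p under 0.05 and DESeq2 called 5, all of these higher at 50 kPa. Of the 11 fold changes 9 were positive and 2 negative, those of Mertk and Fcgr1. The 11 neutrophil markers summed to 899.5 to 1686 CPM at 50 kPa and 3835 to 7355 CPM at 2 kPa, and 6 of 11 fell by edgeR. The 8 B cell markers summed to 22.6 to 97.8 CPM at 50 kPa and 823 to 1321 CPM at 2 kPa, and 7 of 8 fell by edgeR. Most of that sum was Igj, singled out after its values were seen, at 41.0, 16.9 and 84.1 CPM at 50 kPa and 763, 1209 and 761 CPM at 2 kPa. Of 7 megakaryocyte markers 4 fell, with sums of 76.3 to 242 CPM at 50 kPa and 217 to 376 CPM at 2 kPa. At 50 kPa most of that sum was Pf4, likewise singled out, with a log2 fold change of -0.13 (edgeR adjusted p = 0.883). No marker of any list was at 0 in all libraries. The part of these cell types in the class I values was not tested.

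Markers of the labelled cell type were present at both stiffnesses. The 8 dendritic cell markers summed to 1816 to 3206 CPM at 50 kPa and 983 to 1729 CPM at 2 kPa. Itgax, singled out after its values were seen, was at 2824, 2957 and 1412 CPM at 50 kPa and 1108, 299 and 995 CPM at 2 kPa. It made up most of the sum in every library but low tension replicate 2, where Ccr7 was higher at 538 CPM. Of the 8 markers 6 had negative fold changes, with a median log2 of -1.12, and 2 fell by edgeR and 5 by DESeq2. The 7 markers of cross-presenting type 1 dendritic cells summed to 1935 to 3095 CPM at 50 kPa and 601 to 1765 CPM at 2 kPa. Nearly all of this was 1 gene, Naaa, also singled out after its values were seen, at 2964, 3047 and 1873 CPM at 50 kPa and 1707, 558 and 1157 CPM at 2 kPa. Of the 6 that passed the filter, 0 were called by edgeR. By edgeR 3 had an unadjusted p under 0.05 with a positive and 1 with a negative fold change. DESeq2 called 1 in each direction. The 10 markers of mature dendritic cells summed to 1539 to 2326 CPM at 50 kPa and 2492 to 5863 CPM at 2 kPa. By edgeR 0 of 10 were called, 6 had an unadjusted p under 0.05 and DESeq2 called 6, all of these lower at 50 kPa. Of the 10 fold changes 8 were negative and 2 positive, those of Ccl17 and Socs2.

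H2-T23 encodes Qa-1, a nonclassical class I chain that presents leader peptides of other class I chains to receptors of natural killer cells. It was at 554, 486 and 816 CPM at 50 kPa and at 509.8, 407 and 831 CPM at 2 kPa. The groups covered nearly the same range, with replicate 3 on top in each. The log2 fold change was 0.09 ± 0.32, with a 95% interval from -0.69 to 0.87 (edgeR adjusted p = 0.874). It was -0.16 without high tension replicate 3, -0.12 without low tension replicate 2 and -0.0078 with total counts as the scaling. Of the distinct stretches of 50 bases in their transcripts, 13.6% for H2-T23, 12.8% for H2-D1 and 9.63% for H2-K1 also occur in other genes. The split of reads between these chains and the genes that share such stretches is uncertain.

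The balance of the chains within a library overlapped between the stiffnesses. Per kilobase, B2m over the sum of H2-K1 and H2-D1 was 2.68, 2.66 and 2.74 at 50 kPa and 2.46, 2.75 and 2.52 at 2 kPa. The log2 difference was 0.07, and the 2-sided exact permutation test gave p = 0.4, or 0.7 adjusted over the 7 ratios tested. H2-K1 over H2-D1 was 0.828, 0.802 and 1.09 at 50 kPa and 0.804, 1.08 and 1.06 at 2 kPa (exact permutation p = 0.9, adjusted 0.9). With 3 libraries against 3 no such test can give a p under 0.1.

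Tap1 and Tap2 encode the 2 subunits of the peptide transporter, and Tapbp encodes tapasin, which ties the class I molecule to it. Tap1 was at 205, 192 and 374 CPM at 50 kPa and at 234, 220.1 and 563 CPM at 2 kPa. Replicates 1 and 2 of both stiffnesses lay close together and replicate 3 stood above them at each. For Tap1 this gave a log2 fold change of -0.40 ± 0.45 (edgeR adjusted p = 0.578), and 0.18 without low tension replicate 3.

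Tap2 was at 239, 231 and 324 CPM at 50 kPa and at 281, 265 and 509 CPM at 2 kPa. The groups overlapped, since replicate 3 at 50 kPa was above replicates 1 and 2 at 2 kPa. Tap2 had a log2 fold change of -0.41 ± 0.29 (edgeR adjusted p = 0.388). Tap1 over Tap2 was 0.591, 0.574 and 0.798 at 50 kPa and 0.575, 0.574 and 0.763 at 2 kPa, a log2 difference of 0.03 (exact permutation p = 0.7, adjusted 0.9). In both groups replicate 3 held more Tap1 for its Tap2 than the other libraries did.

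Tapbp was at 696, 622 and 1395 CPM at 50 kPa and at 692, 673 and 1724 CPM at 2 kPa. Replicates 1 and 2 of both stiffnesses fell in 1 narrow range, and replicate 3 was far above them in each group. Tapbp had a log2 fold change of -0.19 ± 0.49 (edgeR adjusted p = 0.818), and leaving out low tension replicate 3 gave 0.41 and high tension replicate 2 gave 0.03. On the opposite strand, exons of other genes overlap 24.9% of Tapbp exon bases, 18.5% of Tap2 and 3.87% of Tap1. The library kit keeps strand, but whether the counting used it is not stated in the sources used here.

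Psmb8 and Psmb9 encode catalytic subunits of the immunoproteasome, which stand in place of Psmb5 and Psmb6 of the standard proteasome. Psmb8 was at 206, 187 and 296 CPM at 50 kPa and at 239.6, 235 and 399 CPM at 2 kPa. Psmb9 was at 75.8, 74.0 and 124 CPM at 50 kPa and at 104, 94.1 and 198 CPM at 2 kPa. In both genes each 50 kPa library was below the 2 kPa library of the same rank, but the groups overlapped. The log2 fold changes were -0.34 ± 0.28 for Psmb8 (edgeR adjusted p = 0.441) and -0.53 ± 0.35 for Psmb9 (edgeR adjusted p = 0.352). Without low tension replicate 3 they were -0.05 for Psmb8 and -0.12 for Psmb9.

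The other genes of the immunoproteasome and its activator also had negative fold changes, as had 53.2% of all tested genes, and 0 of 4 were called by edgeR. Pomp, the assembly chaperone of proteasomes, was at 78.4, 74.6 and 101 CPM at 50 kPa and at 114, 116 and 139 CPM at 2 kPa, with no overlap. Pomp had a log2 fold change of -0.54 ± 0.15, with an adjusted p of 0.092 by edgeR and 0.0268 by DESeq2, and it was the 1 gene of the 4 with an unadjusted p under 0.05. Psmb10, the third catalytic subunit, had a log2 fold change of -0.81 ± 0.39, and Psme1 and Psme2, the subunits of the PA28 activator, had -0.64 ± 0.34 and -0.85 ± 0.41. Their edgeR adjusted p-values were 0.235, 0.272 and 0.237, in that order. The highest library of all 4 was low tension replicate 3.

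All 14 tested genes of the constitutive 20S proteasome had negative fold changes, beside 53.2% of all tested genes, with a median log2 of -0.25. By edgeR 0 of 14 were called, 5 had an unadjusted p under 0.05, and DESeq2 called 2, Psmb4 and Psma4. Over all genes DESeq2 called 1251 of 13150 lower. Psmb4, a structural subunit of the beta ring, was at 119, 108 and 117 CPM at 50 kPa and at 148, 149.8 and 165 CPM at 2 kPa, with a log2 fold change of -0.43 ± 0.09 (edgeR adjusted p = 0.0615). Psma4, of the alpha ring, was at 96.8, 90.1 and 103 CPM at 50 kPa and at 125, 118 and 153 CPM at 2 kPa (log2 fold change -0.45 ± 0.13, edgeR adjusted p = 0.0932). In neither gene did the groups overlap. The replaced catalytic subunits Psmb5, Psmb6 and Psmb7 had log2 fold changes of -0.27 ± 0.14, -0.22 ± 0.25 and -0.21 ± 0.11 (edgeR adjusted p = 0.274, 0.574 and 0.262). That of Psmb6 was 0.07 without low tension replicate 3.

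The ratio of an immunoproteasome subunit to the standard subunit it replaces overlapped between the stiffnesses in all 3 pairs of genes. An exact permutation test of these libraries cannot go below p = 0.1. Psmb8 over Psmb5 was 0.591, 0.619 and 0.716 at 50 kPa and 0.634, 0.535 and 0.863 at 2 kPa, a log2 difference of -0.05 (exact permutation p = 0.8, adjusted 0.9). Psmb9 over Psmb6 was 0.228, 0.253 and 0.388 at 50 kPa and 0.300, 0.373 and 0.394 at 2 kPa, a log2 difference of -0.33 (exact permutation p = 0.3, adjusted 0.7). Psmb10 over Psmb7 was 1.43, 1.29 and 2.38 at 50 kPa and 2.26, 1.79 and 3.52 at 2 kPa, a log2 difference of -0.57 (exact permutation p = 0.3, adjusted 0.7). In each of the 3 ratios replicate 3 was the highest library of its stiffness.

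**Figure D2:**
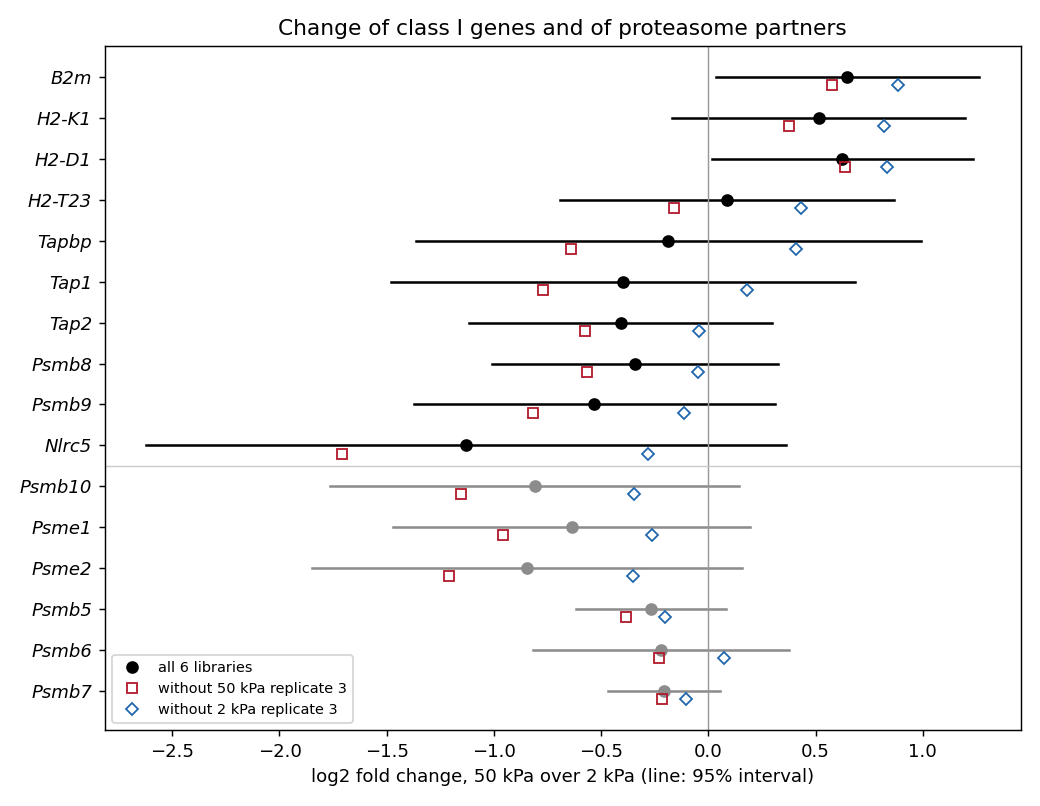
Log2 fold change, 50 kPa over 2 kPa, of the 10 genes (black) and of proteasome partners (grey) with 95% intervals from edgeR; open squares leave out high tension replicate 3 and diamonds low tension replicate 3. B2m and H2-D1 have intervals above 0, and leaving out low tension replicate 3 moves Nlrc5 to -0.28.

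Nlrc5 had the most negative fold change of the 10 genes and the widest interval. It encodes the transactivator that is recruited to class I promoters, as Ciita is to those of class II. It was at 56.3, 57.2 and 141 CPM at 50 kPa and at 106, 99.97 and 351 CPM at 2 kPa. Replicate 3 was 2.51-fold above the lowest library at 50 kPa and 3.51-fold above it at 2 kPa, and the groups overlapped through high tension replicate 3. Its log2 fold change was -1.13 ± 0.62, with a 95% interval from -2.62 to 0.36 (edgeR adjusted p = 0.277). Leaving out low tension replicate 3 gave -0.28, and leaving out high tension replicate 3 gave -1.71. Leaving out both gave -0.84, where the edgeR adjusted p was 0.0399. That setting was chosen after seeing the data, and its 50 kPa libraries are the most alike pair, whose spread may be technical. Nlrc5 over Ciita was 0.577, 0.516 and 1.67 at 50 kPa and 1.08, 1.82 and 3.21 at 2 kPa, a log2 difference of -1.22 (exact permutation p = 0.2, adjusted 0.7).

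Among 15 regulators of class I promoters 0 were called by edgeR, 2 had an unadjusted p under 0.05, both negative, and DESeq2 called 1, Nfyc. Of all 13155 tested genes 3660 had such a p in either direction, 1716 of them higher, and DESeq2 called 1251 of 13150 lower. Nfyc, a subunit of NF-Y, was at 17.4, 16.7 and 17.8 CPM at 50 kPa and at 21.5, 22.7 and 20.7 CPM at 2 kPa, without overlap (log2 fold change -0.32 ± 0.09, edgeR adjusted p = 0.0915). Nfkb1, a subunit of NF-kB, had a log2 fold change of -0.70 ± 0.28 (edgeR adjusted p = 0.169). Irf1, an interferon-induced activator of class I genes, was at 80.7, 80.3 and 130.1 CPM at 50 kPa and at 156, 113 and 462 CPM at 2 kPa. Irf1 had a log2 fold change of -1.33 ± 0.55 (edgeR adjusted p = 0.18), and -0.47 without low tension replicate 3. Rfx5, a subunit of the RFX complex on class I and II promoters, had a log2 fold change of -0.18 ± 0.32 (edgeR adjusted p = 0.736), and 0.29 without low tension replicate 3. Ciita had 0.16 ± 0.26 (edgeR adjusted p = 0.714), and -0.09 without low tension replicate 2.

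Of 9 genes of interferon gamma signalling 0 were called by edgeR, 1 had an unadjusted p under 0.05 and DESeq2 called 1, in both cases Ifng. Over all genes DESeq2 called 1251 of 13150 lower. Ifng, the cytokine itself, had 4, 0 and 12 counts in the 50 kPa libraries and 34, 30 and 177 counts in the 2 kPa libraries. The groups did not overlap, and replicate 3 was highest in each. Ifng had a log2 fold change of -3.82 ± 1.20, with an adjusted p of 0.113 by edgeR and 0.0092 by DESeq2, and it was -2.31 without low tension replicate 3. The 8 markers of T and NK cells, the main source of interferon gamma, summed to 4.42 to 6.12 CPM at 50 kPa and 5.77 to 12.1 CPM at 2 kPa. Of the 6 that passed the filter, 0 were called by edgeR. By edgeR 2, Nkg7 and Klrd1, had an unadjusted p under 0.05 and DESeq2 called 1, Nkg7, all of these lower at 50 kPa. Of the 6 fold changes 4 were negative and 2 positive, those of Cd3g and Cd3d (log2 0.53 and 0.52). Nkg7, singled out after its values were seen, made up most of the highest sum, with 7.15 CPM in low tension replicate 2. The part of T and NK cells in the Ifng value was not tested.

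**Figure D3:**
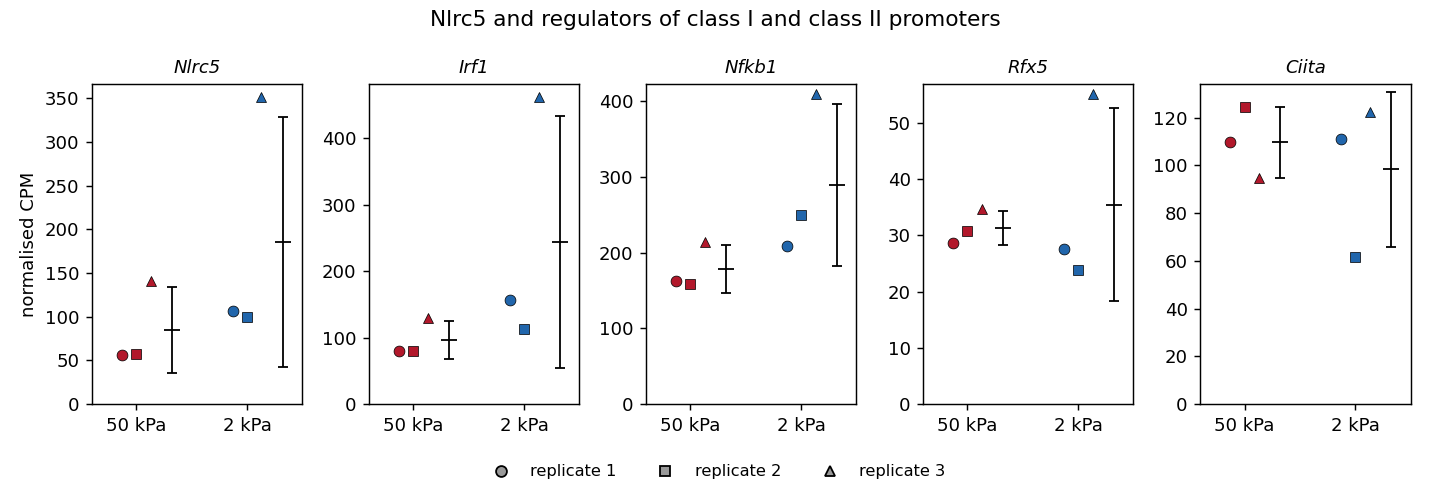
Normalised CPM of Nlrc5, Irf1, Nfkb1, Rfx5 and Ciita in each library, 50 kPa left of 2 kPa, with the replicate as symbol and the mean with SD (n = 3). Low tension replicate 3 is the highest library in every panel, at 351 CPM for Nlrc5 and 462 CPM for Irf1, except that of Ciita, where high tension replicate 2 is highest at 124 CPM.

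Replicate 3 was the highest library at both stiffnesses in 9 of the 10 genes, H2-D1 being the exception, and in 21.7% of all 13155 tested genes. Low tension replicate 3 was the highest of all 6 libraries in 7 of the 10 genes, against 22.4% of all tested genes. The pattern of replicate 3 as the highest at both stiffnesses was also counted in the other lists. It was found in 4 of 4 immunoproteasome partners, 7 of 9 genes of interferon gamma signalling and 11 of 16 other class I chains. It held in 10 of 15 promoter regulators and 9 of 14 constitutive proteasome genes. It was found in 7 of 16 genes of cross-presentation, 2 of 9 of peptide loading and 0 of 10 class II genes. B2m, H2-D1 and H2-K1 made up 86.0, 86.6 and 80.2% of the summed level of the 10 genes at 50 kPa and 78.3, 76.2 and 70.9% at 2 kPa. The lowest share lay in replicate 3 of each stiffness. These genes have the largest positive fold changes of the 10, so a higher share at 50 kPa follows from their choice and is no separate result.

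Over the 6 libraries, the log2 levels of Tapbp, Tap1, H2-T23, Psmb8, Tap2, Psmb9 and Nlrc5 had Pearson correlations of 0.982, 0.963, 0.95, 0.897, 0.894, 0.867 and 0.778 with the mean of the other 9 genes. H2-K1, B2m and H2-D1 had 0.605, 0.387 and 0.264. These are descriptions of 6 libraries that share their scaling and fall into 2 groups. Of 10050 genes with a mean of at least 5 CPM, the genes most like the mean of the 10 were Cd274, Zcchc2, Ptpn12, Scarb2 and Foxred1, with Pearson correlations of 0.993 to 0.995. Cd274, which encodes the inhibitory ligand PD-L1, was at 559.6, 501.8 and 1049 CPM at 50 kPa and at 514, 483.4 and 1563 CPM at 2 kPa. Its log2 fold change was -0.28 (edgeR adjusted p = 0.754), and 0.50 without low tension replicate 3.

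Of 16 tested other class I and class I-like chains, Mr1 alone was called by edgeR, and it rose at 50 kPa. Mr1 (chr1:155127277-155146814, minus strand) encodes the chain that presents vitamin metabolites to MAIT cells. It was at 73.9, 82.8 and 66.4 CPM at 50 kPa and at 41.6, 23.5 and 29.2 CPM at 2 kPa, so that all 50 kPa libraries were above all 2 kPa libraries. Replicate 3 was not the highest library of either group. The log2 fold change was 1.24 ± 0.22, or 2.36-fold, with an adjusted p of 0.045 by edgeR and 3.3e-05 by DESeq2. The edgeR adjusted p was 0.0442 without low tension replicate 1. Leaving out low tension replicates 2 or 3 gave 0.0970 or 0.0732, and leaving out high tension replicates 1, 2 or 3 gave 0.196, 0.198 or 0.0572, with log2 fold changes of 1.07 to 1.32. With total counts as the scaling it was 0.0503.

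The 9 tested genes of peptide loading and quality control in the endoplasmic reticulum had a median log2 fold change of 0.18. By edgeR 0 of 9 were called, 1 had an unadjusted p under 0.05 and DESeq2 called 0. That gene was Uggt1, the glucosyltransferase that tests the folding of glycoproteins, at 126, 135 and 119 CPM at 50 kPa and at 109, 109.9 and 106 CPM at 2 kPa. Its groups did not overlap, and the log2 fold change was 0.23 ± 0.09 (edgeR adjusted p = 0.158). Tapbpl, a peptide editor related to tapasin, was at 16.2, 17.4 and 34.4 CPM at 50 kPa and at 27.6, 28.8 and 71.9 CPM at 2 kPa (log2 fold change -0.91 ± 0.48, edgeR adjusted p = 0.257).

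Of 16 genes of cross-presentation 0 were called by edgeR, 2 had an unadjusted p under 0.05 with a positive and 3 with a negative fold change. DESeq2 called 2 in each direction, beside 1121 higher and 1251 lower of 13150 genes. Ifi30, the lysosomal thiol reductase GILT, was at 291, 298 and 192 CPM at 50 kPa and at 139, 88.6 and 125 CPM at 2 kPa. The groups did not overlap, and the log2 fold change was 1.15 ± 0.24, with an adjusted p of 0.0563 by edgeR and 0.00049 by DESeq2. Sec61b, a subunit of the translocon, was at 84.0, 68.9 and 92.6 CPM at 50 kPa and at 107, 128 and 109 CPM at 2 kPa, also without overlap. Its log2 fold change was -0.49 ± 0.14 (edgeR adjusted p = 0.0968).

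The 10 genes of class II and its transactivator all had positive fold changes, with a median log2 of 0.92. Among all tested genes 53.2% had negative ones. By edgeR 0 of 10 were called, 8 had an unadjusted p under 0.05 and DESeq2 called 5. H2-Aa, a class II alpha chain, was at 5385, 5281 and 3205 CPM at 50 kPa and at 2354, 1028 and 2381 CPM at 2 kPa (log2 fold change 1.27 ± 0.39, edgeR adjusted p = 0.11). H2-Ob, a chain of the class II loading inhibitor, was at 103, 107 and 84.6 CPM at 50 kPa and at 59.2, 29.4 and 58.6 CPM at 2 kPa (log2 fold change 1.00 ± 0.28, edgeR adjusted p = 0.0906). In both genes replicate 3 was the lowest library at 50 kPa, and the groups did not overlap.

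**Figure D4:**
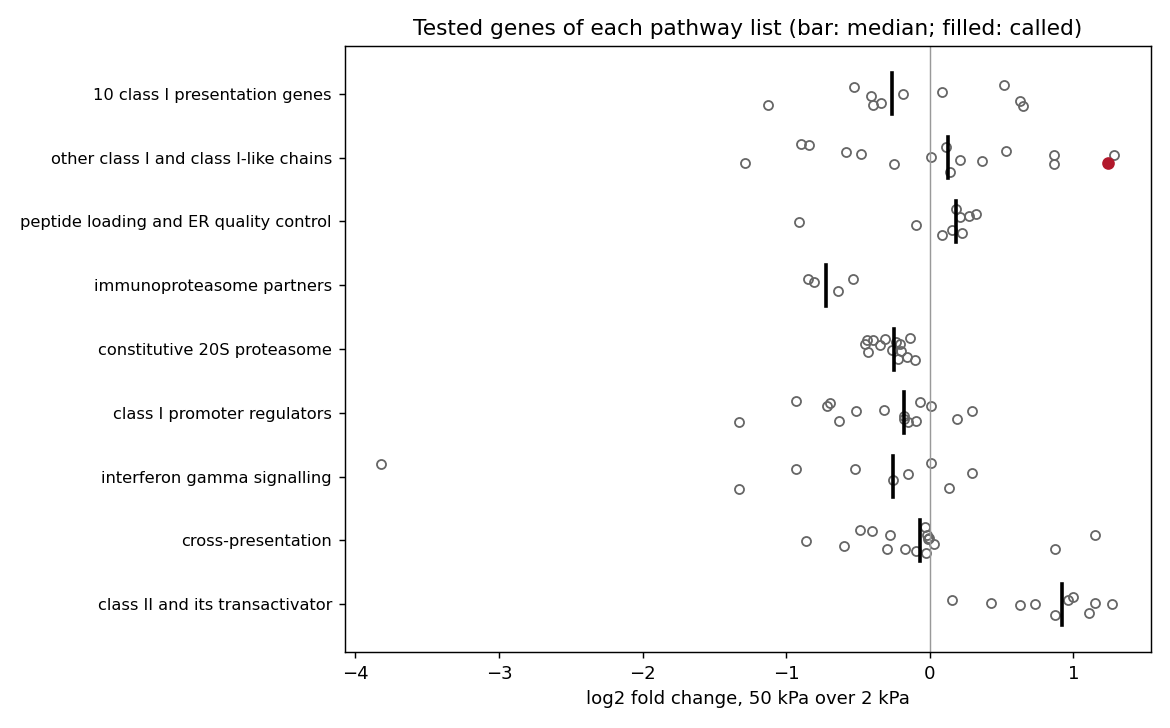
Log2 fold change, 50 kPa over 2 kPa, of the tested genes of each class I pathway list and of class II, with the median as a bar and genes called by edgeR filled. Mr1 is the filled point among the other class I chains, all 14 constitutive proteasome genes lie below 0, and all 10 class II genes lie above it.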

How the data were processed

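PolyA RNA of 3 samples at 50 kPa and 3 at 2 kPa was sequenced from a directional kit, per the labels' protocols. The deposited values are whole-number counts per gene symbol, 1 table per library, and groups follow the labelled stiffness. The submitters' processing notes name TopHat2 2.0.11, HTSeq 0.6.1p2, FastQC 0.11.2, edgeR 3.8.6 and 3.16.5, and the builds hg19 and mm10, with no role or order.

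The test was run with edgeR 4.0.16 in R 4.3.3: filterByExpr (minimum count 10, minimum total 15), TMM scaling, glmQLFit and glmQLFTest with stiffness as the term, and Benjamini-Hochberg adjustment over all 13155 tested genes. DESeq2 1.42.0 and limma 3.58.1 (voom), RLE and total-count scaling, no filter, a replicate block and leaving out each library were alternatives. Ratios of 2 genes used CPM per kb of union exon (GENCODE vM21) and 2-sided exact permutation tests. Likeness to the 10 genes used log2 of CPM plus 0.5. Named were the 10 genes, each list's called genes or else the 2 with the smallest p, fixed partners and regulators, and the 5 genes most like the 10; 1 gene of this rule is not reported here. The genes and lists were chosen with earlier results of these data known. The common biological coefficient of variation was 24.6%. Plots used Python 3.11.15 with matplotlib 3.10.9.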

Additional observations from a re-analysis of the deposited data

How the results depend on the processing

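B2m, H2-D1 and H2-K1 kept positive and Tap2, Psmb8, Psmb9 and Nlrc5 negative fold changes under every alternative run. Genes called higher, 194 by edgeR, numbered 77 under total-count scaling, where the all-gene median log2 fold change was -0.16 against -0.03, and 1121 with DESeq2. Genes called lower, 260, numbered 1251 with DESeq2 and 522 with the replicate block. Leaving out 1 library gave 0 to 255 higher and 0 to 256 lower calls. Of the 10 genes DESeq2 called 1 higher, B2m, and the replicate block called 1 lower, Nlrc5 (log2 fold change -1.01 ± 0.13, edgeR adjusted p = 0.0384). It also called all 4 immunoproteasome partners lower, Psmb10 (edgeR adjusted p = 0.0359), Psme1 (0.0425), Psme2 (0.0413) and Pomp (0.0435), as well as Tapbpl (0.0384) and Ifng (0.0416). The replicate numbers were not taken as pairs: same-numbered libraries deviated from their group means with correlations over genes of 0.628, -0.0666 and 0.543, and 3 of 6 libraries were closest to that of their own number.

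A pair of alternatives was chosen after seeing the data. Summing high tension replicates 1 and 2 gave 0 higher and 0 lower calls. Without replicate 3 of either group there were 127 higher and 231 lower calls, 1 of them among the 10 genes, Nlrc5. The log2 fold change changed sign for H2-T23 with total counts (-0.0078), for Zcchc2 with the replicate block (1e-04), and, with replicates summed, for Tapbp (0.0061), Zcchc2 (0.054), Ptpn12 (0.018), Scarb2 (0.042) and Foxred1 (0.026). Without replicate 3 of either group it did so for Psmb6 (0.085), Rfx5 (0.24), Cd274 (0.12), Zcchc2 (0.17), Ptpn12 (0.038), Scarb2 (0.085) and Foxred1 (0.036). Leaving out 1 library gave H2-T23 -0.16 to 0.43, Tap1 -0.77 to 0.18, Tapbp -0.64 to 0.41, Psmb6 -0.44 to 0.073, Rfx5 -0.40 to 0.29, Ciita -0.094 to 0.35, Cd274 -0.69 to 0.50, Zcchc2 -0.29 to 0.37, Ptpn12 -0.085 to 0.073, Scarb2 -0.14 to 0.18 and Foxred1 -0.11 to 0.092. The log2 ratio of Psmb8 over Psmb5 ranged over -0.21 to 0.14 and that of Tap1 over Tap2 over -0.12 to 0.17. The cause of these shifts was not tested. With 3 libraries a group, and 2 of them at 50 kPa nearly alike, intervals are wide: that of Nlrc5 ran from -2.62 to 0.36.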
